A study of Homo sapiens with 2 samples.

Results

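The carbonic anhydrase genes CA2, CA5B, CA8, CA9, CA11, CA12 and CA13 were compared between a gefitinib-resistant lung adenocarcinoma line and its parent. They are 7 of the 20985 genes in the deposited table, which lists 15 carbonic anhydrase genes in all. They were chosen by gene symbol with the levels of these same 2 libraries already known, so their values are a description and carry no test. The resistant group was HCC827 ZDR3, derived from HCC827 cells under gefitinib, which inhibits the tyrosine kinase EGFR. The drug was begun at 10 nM for 1 month and raised 3-fold each month to 1 µM, and 3 colonies were then taken. It was set against parental HCC827, a lung adenocarcinoma cell line whose EGFR carries an activating mutation and for which the labels give no drug exposure. The labels' account of the colonies breaks off, so it is not known whether HCC827 ZDR3 is 1 clone. They also leave unsaid whether the drug was present at harvest and whether the sequenced cells grew in the low-serum, isotope-labelled lysine medium that the growth protocol describes.

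Each group was 1 library of polyadenylated RNA, with 243549875 gene reads for the resistant and 257192599 for the parental line. With no replicates there was no test, no p-value is given, and each difference is one between these 2 libraries. The deposited values were read counts scaled by a factor common to all genes of a library, with no division by gene length. A level is given here in these normalised reads, of which 1 unit equals 138 reads in the resistant and 143 reads in the parental library. A gene with a level of 1 or more in either library was called expressed. Log2 ratios are resistant over parental with a pseudocount of 1 unit, which understates the difference of low genes. A plain ratio adds nothing and has an exact 95% Clopper-Pearson interval that covers counting error only. In RNA from bulk cultures, fewer cells with a transcript and less of it per cell cannot be told apart.

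Carbonic anhydrases convert carbon dioxide and water to bicarbonate and a proton and back. CA12, CA9 and CA14 sit in the plasma membrane with the catalytic domain outside the cell, CA2 and CA13 are cytosolic, and CA5B is mitochondrial. CA8 and CA11 are carbonic anhydrase-related proteins, which lack zinc-binding histidines and do not catalyse the reaction. In tumours CA9 and CA12 are known for acidifying the surroundings of the cell, and CA9 is a classic target of hypoxia-inducible factor (HIF).

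The family held more transcripts in the resistant library, through 3 genes: the membrane enzyme CA12, the mitochondrial CA5B and the cytosolic CA2. CA9 had no reads there, and CA11, CA13 and CA8 were close to equal or too low to compare. Of the 7 genes 5 were expressed, of which 3 were higher in the resistant library by 2-fold or more and 0 were lower by as much. Among all 13777 expressed genes 10.6% were higher by 2-fold or more, 9.68% were lower by as much, and the median log2 ratio was -0.03. The 5 expressed members had a median of 1.50. Since the members were chosen with these values known, the gap from the background is no finding.

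**Figure D1:**
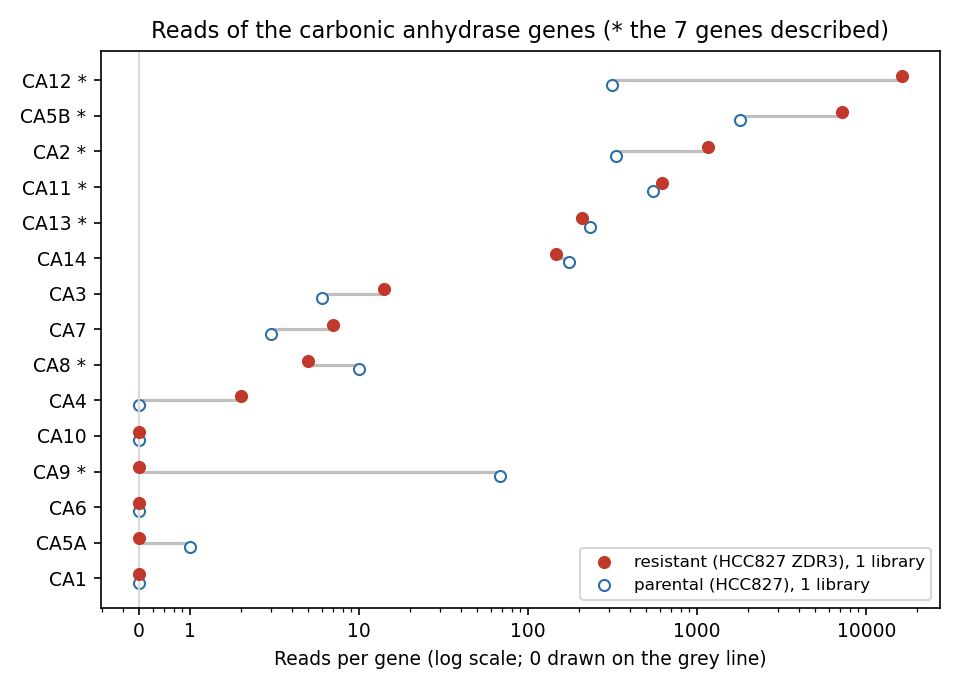
Reads per gene on a log axis for the 15 carbonic anhydrase genes, with filled points for the resistant and open points for the parental library, 1 library each. CA12 had 16201 resistant and 312 parental reads, while CA9 had 0 resistant and 68 parental reads.

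CA12 is a transmembrane enzyme that is known as an oestrogen-induced gene in breast cells. It had 16201 reads in the resistant library, a level of 118, against 312 reads in the parental library, a level of 2.18. The log2 ratio was 5.22, and the plain ratio was 53.9 with a counting interval of 48.2 to 60.5. Of all expressed genes 31, or 0.225%, had a larger log2 ratio. Per length it was the most abundant carbonic anhydrase of the resistant library, while CA11, CA5B, CA2 and CA14 were above it in the parental library.

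CA5B, one of a pair of mitochondrial isozymes, provides bicarbonate inside the organelle. It had 7187 reads in the resistant library, a level of 52.2, against 1786 reads in the parental library, a level of 12.5. The log2 ratio was 1.98, and the plain ratio was 4.18 (counting interval 3.97 to 4.40). Its mitochondrial partner CA5A, known from liver, had 0 reads in the resistant and 1 in the parental library. CA5B exons share 1874 of their 8520 bases with the antisense gene INE2 and 29 bases with CA5BP1, a pseudogene copied from CA5B. Neither gene is in the table and no strand setting is given in the sources used here, so reads from these genes could count toward CA5B.

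CA2, a fast and widely expressed cytosolic isozyme, had 1156 reads in the resistant library, a level of 8.40. The parental library held 333 CA2 reads, a level of 2.33. The log2 ratio was 1.50, and the plain ratio was 3.60 (3.19 to 4.08). With a pseudocount of 5 in place of 1 the log2 ratio was 0.87, so that the gene was no longer past 2-fold. The other cytosolic genes were near equal or nearly without reads. CA13 had 209 reads in the resistant and 233 in the parental library, and the plain ratio of 0.931 had an interval of 0.769 to 1.13, which includes equal levels. CA3, abundant in muscle, had 14 resistant and 6 parental reads, CA7 had 7 resistant and 3 parental reads, and CA1, the red cell isozyme, had 0 in both.

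CA9 had 0 reads in the resistant library, against 68 reads in the parental library, a level of 0.476. Against a floor of 3 reads in the resistant library, and with the parental count taken as exact, it was at least 21.8-fold lower there. CA9 was thus below the minimum for an expressed gene in both libraries, and its log2 ratio of -0.56 with the pseudocount depends on that pseudocount (-2.53 with a pseudocount of 0.1). On the opposite strand, ARHGEF39, listed as C9orf100, overlaps 643 of the 1670 exon bases of CA9. It had 2788 reads in the resistant and 8041 in the parental library, a log2 ratio of -1.43. Since CA9 had 0 reads in the resistant library, no ARHGEF39 read was counted for CA9 there. No strand setting is given, so whether CA9 reads from the shared bases were counted for ARHGEF39 or dropped was not tested.

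The related proteins were flat or nearly absent. CA11, a protein of unsettled function known from brain, had 619 reads in the resistant and 550 in the parental library. Its levels of 4.50 in the resistant and 3.85 in the parental library gave a log2 ratio of 0.18 and a plain ratio of 1.17 (1.04 to 1.31). The interval lies just above 1, but the spread between cultures is unknown. CA8, which binds the type 1 inositol trisphosphate receptor in Purkinje cells, had 5 resistant and 10 parental reads. The ratio of 0.519 had an interval of 0.139 to 1.67, so no difference was detectable at this depth.

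Of the 8 remaining family genes only CA14 was expressed, with 146 reads in the resistant and 175 in the parental library. Its level was 1.06 in the resistant and 1.22 in the parental library, and the plain ratio of 0.866 had an interval of 0.691 to 1.09. CA14 is a membrane enzyme of the same topology as CA12, and its ratio was near 1 where that of CA12 was 53.9. CA4 had 2 resistant and 0 parental reads. CA6, the salivary isozyme, and CA10 had 0 in both, which allows levels of up to 0.0218 in the resistant and 0.0210 in the parental library.

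**Figure D2:**
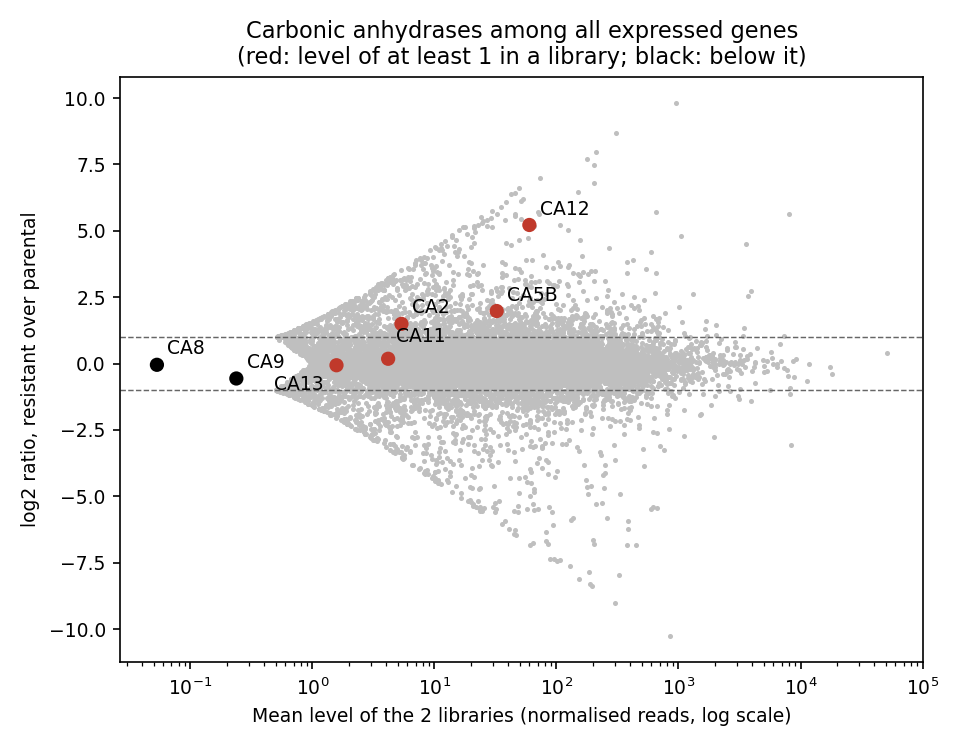
Log2 ratio of resistant over parental against the mean level of the 2 libraries on a log axis, with all 13777 expressed genes in grey and the 7 carbonic anhydrases named. CA12, CA5B and CA2 lie above the dashed line at 1, with log2 ratios of 5.22, 1.98 and 1.50, and CA8 and CA9 (black) lie below the minimum level.

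Levels were then compared between genes per kilobase of annotated exon. In the resistant library the order was CA12 at 16.1 normalised reads per kilobase, CA5B at 6.13, CA2 at 3.96 and CA11 at 2.17. In the parental library the order was CA11 at 1.86, CA5B at 1.47 and CA2 at 1.10, followed by CA14, CA12, CA13 and CA9 between 0.320 and 0.285. The leading 4 genes of the resistant and the leading 3 of the parental library kept their places when the longest annotated transcript was used as the length. CA12 and CA13 then changed places in the parental library, so their order there is not settled.

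Summed over the 15 genes, the level per kilobase was 29.0 in the resistant and 5.66 in the parental library, a ratio of 5.12. Without CA12 the ratio of the summed levels, not corrected for length, was 3.07, against 7.63 with it. The outward-facing membrane enzymes CA4, CA9, CA12 and CA14 made up 56.5% of the per-kilobase total in the resistant and 16.0% in the parental library. The cytosolic enzymes made up 14.8% in the resistant and 25.1% in the parental library, although their summed level per kilobase was higher, at 4.30 in the resistant and 1.42 in the parental library. The mitochondrial pair made up 21.1% in the resistant and 25.9% in the parental library, and the related proteins 7.50% in the resistant and 33.0% in the parental library. As a share of the family's reads, CA12 took 63.4% in the resistant library (exact interval 62.8% to 64.0%) and 8.97% in the parental library (8.04% to 9.97%).

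**Figure D3:**
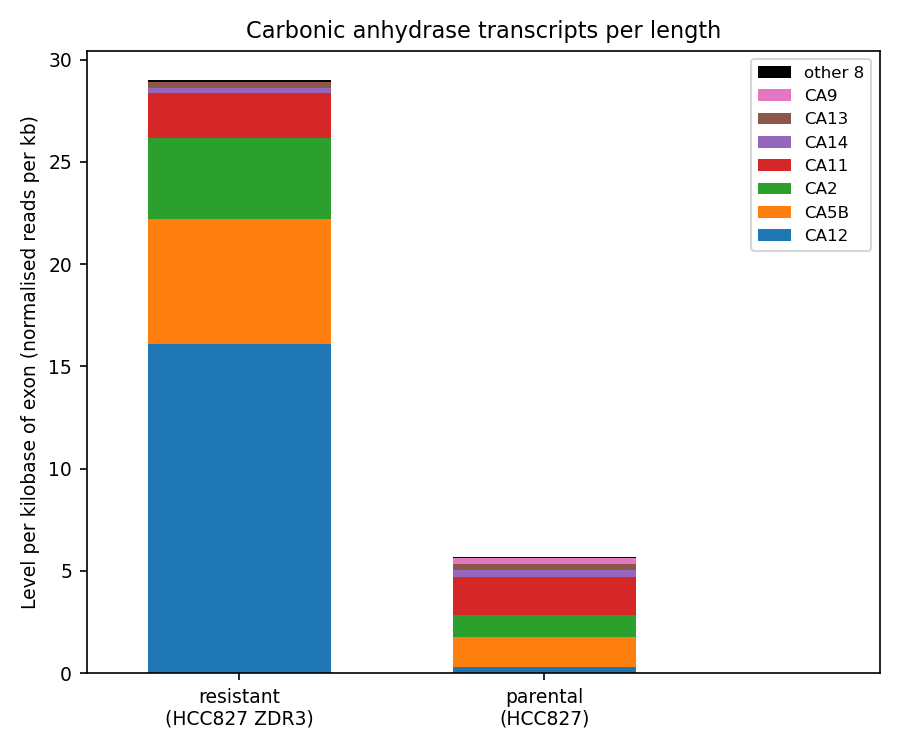
Stacked levels per kilobase of exon for the resistant (left) and parental (right) library, 1 library each and without error bars, coloured by gene. The total was 29.0 in the resistant and 5.66 in the parental library, and CA12 alone contributed 16.1 in the resistant and 0.299 in the parental library.

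Promoters from RefSeq were available here for CA12, CA5B and CA9, which are shown because CA12 and CA5B were far higher in the resistant library and CA9 had no reads there. The 250 bases before each RefSeq start are given on the gene's own strand, 5′ to 3′, from build GRCh38.p14. CA12 is at chr15:63381847-63382096 on the minus strand, CA5B at chrX:15738020-15738269 on the plus strand and CA9 at chr9:35673678-35673927 on the plus strand. Capitals mark matches to either of 2 motifs on either strand. The motifs are a form of the HIF core, ACGTG, and the AP-1 letters TGANTCA, bound by JUN and FOS proteins. ACGTG is also part of the E-box letters CACGTG. The HIF core is RCGTG, where R is A or G, and its form GCGTG was not searched or marked.
CA12: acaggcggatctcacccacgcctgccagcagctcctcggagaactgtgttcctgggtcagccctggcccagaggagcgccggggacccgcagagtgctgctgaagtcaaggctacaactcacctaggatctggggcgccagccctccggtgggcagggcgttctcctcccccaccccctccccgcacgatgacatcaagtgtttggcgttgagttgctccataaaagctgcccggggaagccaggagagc
CA5B: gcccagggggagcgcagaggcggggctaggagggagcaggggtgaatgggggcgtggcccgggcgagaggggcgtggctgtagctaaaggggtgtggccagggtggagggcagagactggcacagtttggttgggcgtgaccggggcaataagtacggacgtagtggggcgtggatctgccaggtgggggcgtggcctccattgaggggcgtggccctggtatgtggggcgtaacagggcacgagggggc
CA9: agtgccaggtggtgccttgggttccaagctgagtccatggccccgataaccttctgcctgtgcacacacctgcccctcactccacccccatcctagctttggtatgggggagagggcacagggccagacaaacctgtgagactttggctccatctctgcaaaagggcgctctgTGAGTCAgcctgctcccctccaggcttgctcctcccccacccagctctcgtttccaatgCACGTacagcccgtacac

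The CA9 window held 1 match to each motif. The AP-1 letters, TGAGTCA, lay from -77 to -71 of the RefSeq start, and ACGTG, on the opposite strand, lay from -18 to -14. Neither ACGTG nor the AP-1 letters were in the CA12 or CA5B window. The unsearched form GCGTG can be read in the CA5B window and, on the opposite strand, in the CA12 window, but not in the CA9 window. Of 35116 promoter windows of the same length, 18.5% held ACGTG and 6.57% the AP-1 letters. The share with GCGTG was not counted. A match in letters is a description and not a bound site. JUN itself had a level of 232 in the resistant and 49.1 in the parental library. Whether JUN bears on the level of CA9, CA12 or CA5B was not tested.

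The 7 genes lie on 5 chromosomes, and the 5 nearest expressed genes on each side, in GENCODE 29 order, were compared with each. CA12 exceeded all 10 of its neighbours, whose median log2 ratio was 0.33, with RAB8B at 0.72 and USP3 at 0.09 beside it. Of these neighbours 2 were higher in the resistant library by 2-fold or more, TLN2 (3.44) and TPM1 (1.80), and 1 was lower by as much, DAPK2 (-1.12). The 5 genes on the RAB8B side ranged from 0.57 to 3.44, and those on the USP3 side from -1.12 to 0.09. With 10 genes on each side the median was -0.20. CA2 likewise exceeded all 10 of its neighbours on chromosome 8, whose median was -0.04. They included CA13 (-0.06) on one side and WWP1 (-0.02) on the other, and 1 of them, MMP16 (1.05), was also higher by 2-fold or more. With 10 genes on each side the median was -0.22.

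CA5B stood among genes that were themselves higher. Of its 10 neighbours on chromosome X 6 were higher in the resistant library by 2-fold or more and 0 were lower by as much, and their median was 1.43. The nearest expressed genes were TMEM27 (0.79) and ZRSR2 (-0.16). With 10 genes on each side the median was 0.95, and with unexpressed genes counted it was 0.14. Whether the CA5B ratio belongs to this stretch was not tested.

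CA11 had a higher log2 ratio than 9 of its 10 neighbours, whose median was -0.70, with DBP at -1.09 and FUT2 at -2.20. With 10 genes on each side that median was -0.15. The neighbours of CA9 had a median of -0.44, with C9orf100 at -1.43 and TPM2 at 0.27, and those of CA8 a median of 0.02, with TOX at 3.13 and RAB2A at -0.11. The neighbours of CA13 had a median of -0.17, with C8orf59 at -0.31.

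**Figure D4:**
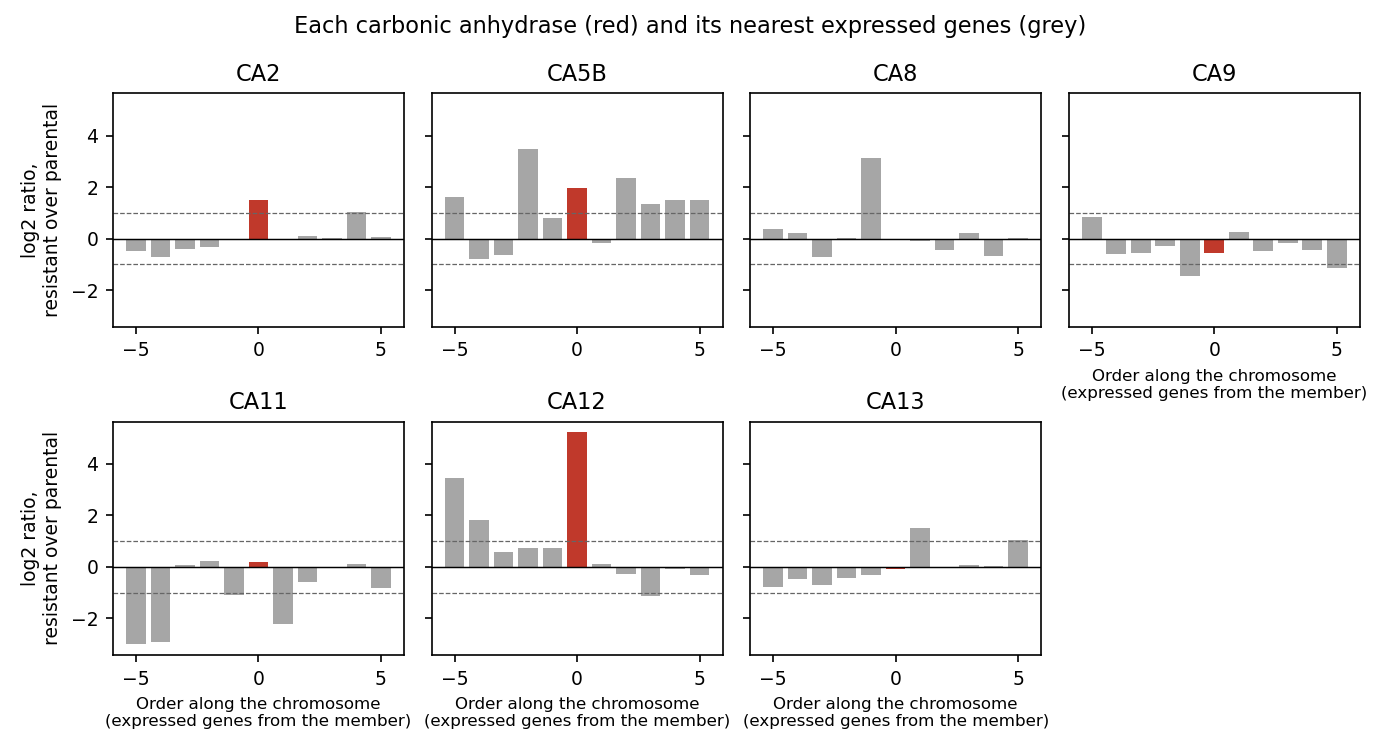
Log2 ratio of resistant over parental for each of the 7 genes (red, at 0 on the x axis) and the 5 nearest expressed genes on each side (grey), in chromosome order, with dashed lines at 1 and -1. CA12 and CA2 stand above all 10 of their neighbours, while 6 of the 10 neighbours of CA5B pass 1.

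Carbonic anhydrases act with transporters that carry the bicarbonate and protons they make. Of 10 genes of the SLC4 family, most of which carry bicarbonate, 7 were expressed, and their median log2 ratio was 0.20. Of these 7 genes 1 was higher and 1 lower by 2-fold or more. The same measure of 2-fold or more holds for the counts of the lists that follow. Among all expressed genes 10.6% were higher and 9.68% were lower by it. The lists were chosen with earlier results of these data known, so a gap from those shares is no finding. The higher SLC4 gene was SLC4A4, the sodium bicarbonate cotransporter NBCe1, with 12449 reads in the resistant and 137 in the parental library. Its level was 90.5 in the resistant and 0.959 in the parental library, a plain ratio of 94.3 (79.7 to 112). SLC4A8 was lower (-1.45), and SLC4A7, another sodium bicarbonate cotransporter, had levels of 236 in the resistant and 457 in the parental library (-0.95). SLC4A11, which is not known as a bicarbonate carrier, had a log2 ratio of -0.71.

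Of 12 genes, those of the SLC26 anion exchanger family and CFTR, 6 were expressed, with 2 higher, 1 lower and a median of 0.38. SLC26A9, a chloride transporter of airway and stomach, had 0 reads in the resistant and 906 in the parental library, at least 291-fold lower against the floor of 3 reads. SLC26A10 (1.83), now classed as a pseudogene, and SLC26A1 (1.35) were higher, and SLC26A11 stood at 0.56. Of 14 genes of the sodium-proton exchangers and their partner proteins 11 were expressed, with 2 higher, 0 lower and a median of -0.52. SLC9A2 had levels of 10.5 in the resistant and 0.525 in the parental library (2.91), and SLC9B2 was also higher (1.40). SLC9A7 stood at -0.89.

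The 6 genes of lactate export were all expressed and none was past 2-fold in either direction, with a median of 0.01. SLC16A1 (-0.75), EMB (0.69), SLC16A7 (0.56) and SLC16A8 (-0.22) had the largest values. Of 24 genes of the V-ATPase, the proton pump of lysosomes and some plasma membranes, 22 were expressed, with 1 higher, 0 lower and a median of -0.06. The exception was ATP6V0A4, a subunit known from acid-secreting kidney cells, with levels of 6.07 in the resistant and 0.203 in the parental library (2.56). TCIRG1 (-0.85), ATP6AP1 (-0.71) and ATP6V1B2 (0.66) came next.

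The 9 genes of enzymes that consume bicarbonate were all expressed, with 4 higher, 0 lower and a median of 0.66. The shares among all expressed genes were 10.6% higher and 9.68% lower. Since the list was chosen with earlier results known, the gap is no finding. CPS1, the mitochondrial carbamoyl phosphate synthetase of the urea cycle, had levels of 21.8 in the resistant and 2.15 in the parental library (2.85). ACACA, the acetyl-CoA carboxylase of fatty acid synthesis, had a log2 ratio of 2.54 and ACACB one of 1.49. PCCA, a subunit of propionyl-CoA carboxylase, had one of 1.27, while PCCB, the other subunit, was within 2-fold (0.26).

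HIF is known to drive CA9 and to act on CA12. Of 10 genes of the HIF subunits, their partners and their regulators 9 were expressed, with 2 higher, 1 lower and a median of 0.07. HIF1A had levels of 4511 in the resistant and 2208 in the parental library (1.03), and ARNT2, a partner of HIF proteins, 7.27 in the resistant and 0.896 in the parental library (2.13). EGLN3, a prolyl hydroxylase that is itself induced by HIF, had levels of 7.87 in the resistant and 58.1 in the parental library (-2.74). EPAS1 (0.07), VHL (-0.27) and EGLN2 (-0.62) were within 2-fold.

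Of 30 HIF target genes, CA9 not among them, 29 were expressed, with 3 higher, 5 lower and a median of -0.09, against 10.6% higher and 9.68% lower among all expressed genes. ANGPTL4 (3.29) and ENO2 (2.09) were higher, and ALDOC (-2.12) was lower. VEGFA had levels of 459 in the resistant and 625 in the parental library (-0.45), and SLC2A1, the glucose transporter GLUT1, had 129 in the resistant and 143 in the parental library (-0.15).

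Of 8 genes of the oestrogen receptor and its partners 5 were expressed, with 1 higher, 2 lower and a median of -0.67. ESR1, an oestrogen receptor gene, had levels of 0.174 in the resistant and 2.09 in the parental library (-1.39). Whether the receptor bears on the CA12 level was not tested. FOXA1 was lower (-1.96), GREB1 was higher (1.43) and GATA3 stood at -0.67. Of 8 genes of the inositol trisphosphate receptors and their regulators, a list taken because CA8 binds the type 1 receptor ITPR1, all 8 were expressed, with 1 higher, 3 lower and a median of -0.65. ITPR1 had levels of 48.3 in the resistant and 49.4 in the parental library (-0.03). ITPR2 (1.21) was higher, and ERLIN1 (-1.57), AHCYL1 (-1.39) and AHCYL2 (-1.33) were lower. The shares among all expressed genes were 10.6% higher and 9.68% lower.

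**Figure D5:**
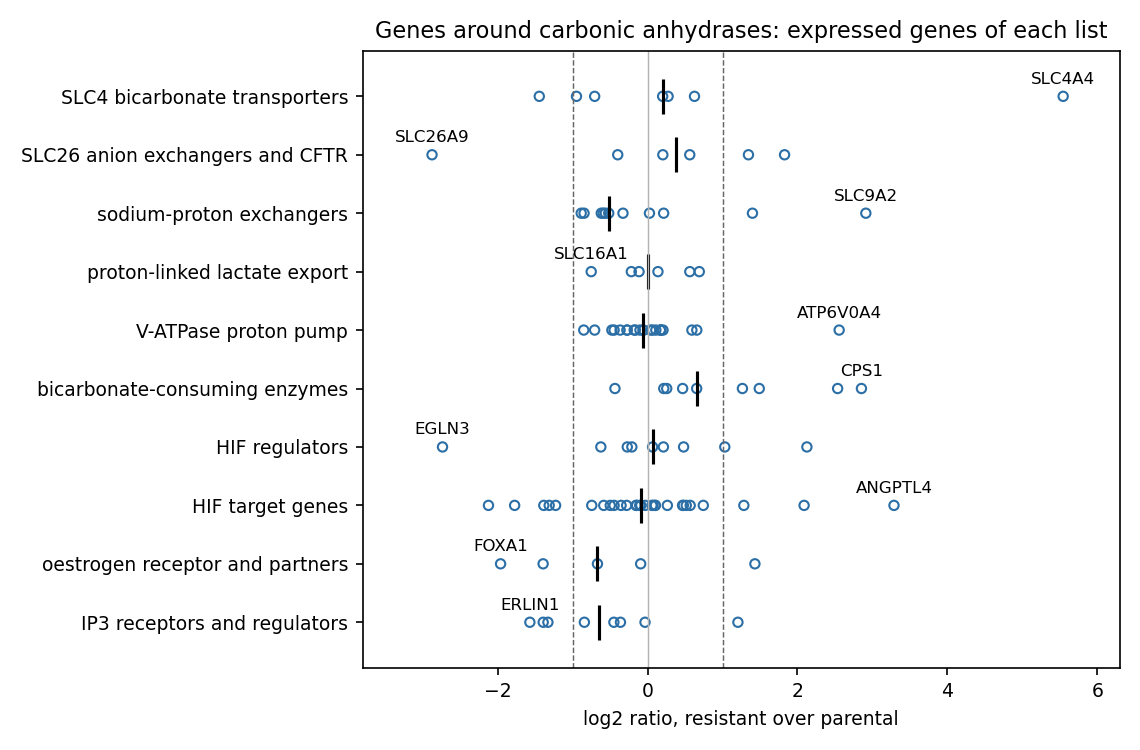
Log2 ratio of resistant over parental for the expressed genes of 10 lists (open points), with a bar at each list's median, dashed lines at 1 and -1 and the most extreme gene named. SLC4A4 stands at 5.55, while the medians of the lists lie between -0.67 and 0.66.

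Markers were examined for the label of the line and for other cells. EGFR, the mutated driver of this line, had levels of 7182 in the resistant and 6662 in the parental library. Of 10 lung adenocarcinoma and airway genes 9 were expressed, with 0 higher and 8 lower by 2-fold or more, among them MUC1 (-5.26), NKX2-1 (-3.22), CDH1 (-3.11) and EPCAM (-3.06). The shares among all expressed genes were 10.6% higher and 9.68% lower. The summed level of the 10 lung and airway genes was 5636 in the resistant and 14685 in the parental library. Their part in the carbonic anhydrase values was not tested. Of 8 erythroid genes, which bear on CA1 and CA2, 0 were expressed, and HBA1, HBA2 and HBB had 0 reads in both libraries. Of 6 leukocyte genes 1 was expressed, CD14 (-1.26), and of 6 fibroblast genes 1, COL1A1 (-1.88). Of 4 endothelial genes found 0 were expressed. The summed levels of the erythroid, leukocyte, fibroblast and endothelial lists were 0.654, 1.00, 1.90 and 0.0945 in the resistant library and 0.882, 2.32, 9.33 and 0.553 in the parental library.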

How the data were processed

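Polyadenylated RNA was sequenced on an Illumina machine per the labels' protocols, and the submitters' processing notes name TopHat. The counter, build, annotation and strand setting were not given in the sources used here. In the deposited table there is 1 log2 value per gene and library, and the table's name calls the values RPKM. When the authors' log2 values were turned back to levels, 100% of the 17049 resistant and 17090 parental genes with 1 to 100000 reads were whole multiples of 1 step within 0.1 read. The step was 0.00727 in the resistant and 0.00700 in the parental library. The values were therefore read as scaled reads, not divided by length, and the design laid out for RPKM was kept. The 3573 resistant and 3504 parental genes at the lowest value, 0.9 reads, were taken as 0. The column ending in Prim was taken for the parental library because ZDR3 is named in the other.

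Levels, ratios with a pseudocount of 1, neighbours and lengths (GENCODE 29, matched by Ensembl identifier) were computed with Python 3.11.15, pandas 2.3.3, numpy 2.4.6 and scipy 1.17.1. No gene coordinates are given, since that annotation need not be the authors'. Counting of genes past 2-fold was tested on simulated data with counting noise alone and planted changes larger than 2-fold. Those data held no spread between cultures, so the check cannot speak to that spread. No molecular identifiers mark the reads, so whether they are independent is not known. Intervals and the floor of 3 reads take reads as independent and cover counting error only. Both understate that error where reads are not independent. Of 174 entries in 16 gene lists 173 were found, 3 of them by identifier. The members and lists were chosen with earlier results of these data known. Named were the members, the other family genes, up to 4 expressed genes per list, those of largest absolute log2 ratio, the nearest expressed gene on each side of a member, and a fixed set with EGFR, JUN, HIF1A, EPAS1, VHL, ESR1, ITPR1, VEGFA, SLC2A1, SLC4A4 and SLC4A7. Genes outside this rule (HBA1, HBA2, HBB, TLN2, TPM1, DAPK2, MMP16, PCCB, and genes that overlap a member) were chosen after their values were seen. A few genes that the rule names are not reported here. Alternatives were pseudocounts of 0.1 and 5, no pseudocount, no minimum level or one of 5, equal library totals, a median log2 ratio of 0, the longest transcript as length and 10 neighbours on each side.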

Additional observations from a re-analysis of the deposited data

How the results depend on the processing

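No paired analysis was possible because each group has 1 library, and leaving out a library was not possible for the same reason. The count of members higher by 2-fold or more was 3 with a pseudocount of 0.1, with no minimum level or one of 5 and with either other scaling, and 2 with a pseudocount of 5. The count lower by as much was 0 under the same settings. Neither was counted with no pseudocount. With a pseudocount of 5 the expressed genes past 2-fold numbered 901 higher and 865 lower, against 1463 and 1333. The log2 ratio of CA12 was 5.69, 4.09 and 5.75 with pseudocounts of 0.1, 5 and none, that of CA5B 2.05, 1.71 and 2.06, and that of CA2 1.81, 0.87 and 1.85. CA9 stood at -2.53 with a pseudocount of 0.1 and at -0.13 with one of 5, and CA8 at -0.32 with 0.1 and -0.95 with none. CA11 and CA13 stayed within their counting intervals under these settings. No member left its counting interval with equal library totals or a median log2 ratio of 0, which raised the resistant levels by factors of 1.02 each. At 5 resistant and 10 parental reads, as for CA8, depth limits any comparison.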
